A study of Oryza sativa Japonica Group with 15 samples.

Results

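The haploid gametes of rice (Oryza sativa, japonica, cultivar Dongjin) were compared by their DNA contacts, with 4 egg cells set against 4 sperm cells. These 8 cells are the libraries labelled egg 1 to 4 and sperm 1 to 4, out of 15 single-cell Hi-C libraries that also cover 3 unicellular zygotes and 4 shoot cells. Eggs came from florets that had not been pollinated and sperm from stamens, and all plants were grown from seed in a greenhouse or a paddy field. The labels name no mutation and no treatment for either gamete type. The labels name no plant or floret for any cell, so each gamete type counts as 1 sample, the spread between cells may be technical, and no test between eggs and sperm was made. Every cell's value is therefore given, with group means and SDs, and it is stated whether the range of the 4 eggs and that of the 4 sperm overlap. The cell types rest on the labels, since an assay of DNA contacts reads no marker gene.

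Single-cell Hi-C joins DNA segments that lay near each other in 1 nucleus and reads the joined ends. In most nuclei a chromosome occupies its own territory, so segments of the same chromosome (cis contacts) meet more often than segments of different chromosomes (trans contacts), and close segments meet more often than distant ones. The egg lies in the embryo sac and keeps a large nucleus, whereas flowering plants carry a pair of small sperm cells with compact chromatin in each pollen grain or tube. In plants with long chromosomes, centromeres and chromosome ends may face opposite sides of the nucleus, which brings like arm positions of different chromosomes together. Both gametes are haploid, so each restriction fragment should be present once.

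Each distinct pair of fragments seen in a cell counted as 1 contact, and far contacts are those between chromosomes or across 20 kb or more. The eggs held 2035, 1315, 4576 and 1381 contacts (eggs 1 to 4), against 3446, 1610, 1279 and 761 in the sperm (sperm 1 to 4). Most of them were local, and the far contacts numbered 543, 528, 558 and 401 in the eggs and 390, 249, 311 and 130 in the sperm. Every egg thus held more far contacts than any sperm, while the ranges of all contacts overlapped. The mean number of read pairs per contact was 3.62 ± 0.75 in eggs and 3.91 ± 0.45 in sperm (SD, n = 4 each). Counts of touched bins and shares of fragment ends with over 1 partner move with depth, so they were also thinned to the shallowest gamete, sperm 4.

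A few positions were shared by the cells far beyond their length, and egg and sperm libraries differed in how much they held of them. Of 37272 bins of 10 kb along the 12 chromosomes, 95 (0.255%) held far contact ends of at least 5 of the 15 cells, and 30 of these recurrent bins lay on chromosome 12. They took 41.3%, 35.3%, 1.97% and 60.5% of the far ends of eggs 1 to 4, against 7.18%, 13.3%, 2.41% and 32.3% in sperm 1 to 4. Egg 3 and sperm 3 were nearly free of them, whereas eggs 1, 2 and 4 exceeded every sperm. With recurrent bins defined from the 7 zygotes and shoot cells alone, the shares were 37.7%, 34.5%, 0.538% and 52.0% in eggs and 5.90%, 10.8%, 1.77% and 26.9% in sperm.

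The recurrent bins formed 66 stretches, and the pair with most egg ends lay on chromosome 12. Coordinates are those of the files, whose build the sources used here do not name. The stretch at chr12:20470001-20570000 held 89, 129, 0 and 35 far ends in eggs 1 to 4 and 0, 1, 0 and 0 in sperm 1 to 4. Among the gametes its ends thus lay almost only in eggs 1, 2 and 4, but the stretch was named for its high egg count. All 3 zygotes (32, 58 and 39 ends) and all 4 shoot cells (2 to 19 ends) held it too. The nearby stretch chr12:20620001-20670000 held 38, 18, 2 and 25 ends in eggs and 2, 1, 0 and 8 in sperm. The stretch at chr12:13340001-13420000 held 56, 41, 1 and 133 ends in eggs and 13, 15, 1 and 25 in sperm, so every gamete had it. On chromosome 1, the stretch chr1:33510001-33590000 held 43, 18, 0 and 22 ends in eggs and 7, 3, 0 and 8 in sperm. A value of 0 allows up to 0.269% of the ends of egg 3, and from 0.385% in sperm 1 to 1.15% in sperm 4. Whether genes lie at these positions was not analysed here.

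**Figure D1:**
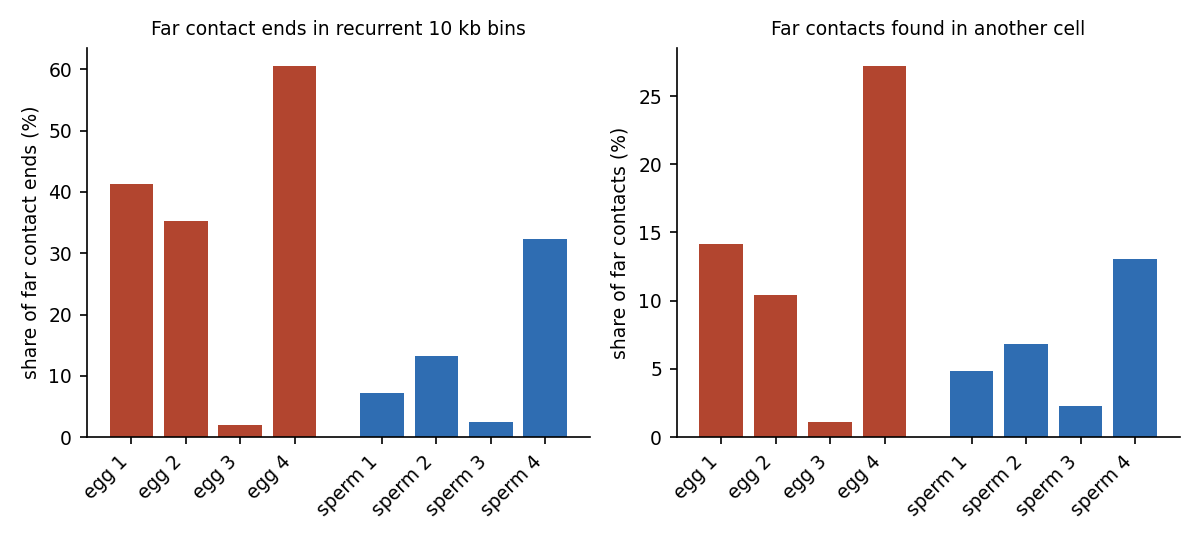
Share of far contact ends in recurrent 10 kb bins (left, %) and share of far contacts whose fragment pair was also found in another of the 15 cells (right, %), as 1 bar per egg (left group) and sperm (right group). Eggs 1, 2 and 4 exceed all sperm in the left panel, and egg 3 lies at 1.97%, beside sperm 3 at 2.41%.

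Contacts with both ends in the recurrent set outnumbered those from random pairing of ends in every gamete. The set was drawn from far ends of these same cells, and the random value ignores distance. The excess therefore cannot show that its members preferred each other. Both ends lay in recurrent bins in 154, 105, 4 and 180 far contacts of eggs 1 to 4, where 92.8, 65.9, 0.217 and 147 would arise if the ends paired at random. In sperm 1 to 4 there were 22, 23, 4 and 31 such contacts, against 2.01, 4.37, 0.181 and 13.57 at random. Summed over cells, they made up 21.8% of egg far contacts (exact 95% interval 20.04 to 23.7%) and 7.41% of sperm far contacts (5.92 to 9.13%). All such intervals cover counting error only, since amplified read pairs without molecular identifiers are not independent molecules.

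Some cells held the very same pair of fragments as another cell. Such pairs numbered 77, 55, 6 and 109 in eggs 1 to 4 and 19, 17, 7 and 17 in sperm 1 to 4, counted against all other 14 libraries. They were 12.2% of the egg far contacts (10.8 to 13.7%) and 5.56% of the sperm far contacts (4.27 to 7.09%). Among gametes, the 6 pairs of eggs shared 88 fragment pairs in total, the 16 egg and sperm pairs 57, and the 6 pairs of sperm 7. These totals are not corrected for depth. Eggs 1 and 4 shared 36, eggs 1 and 2 shared 24, and eggs 2 and 4 shared 24. Read pairs identical in position and strand numbered 5 between eggs 1 and 4 and 2 between egg 4 and sperm 1. There was 1 each between egg 1 and sperm 1 and between egg 4 and sperm 2. The part of shared fragment pairs in the results below was not tested, so values are also given without recurrent bins where stated.

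The gametes covered the chromosomes unevenly, and the clearest departure was chromosome 12. Coverage here is the chromosome's share of far contact ends over its share of the genome length, so 1 is even. Chromosome 12 stood at 3.78, 2.86, 1.36 and 4.27 in eggs 1 to 4, and at 1.79, 1.71, 0.50 and 2.55 in sperm 1 to 4. The means were 3.07 ± 1.28 in eggs and 1.64 ± 0.85 in sperm (SD, n = 4 each), and the ranges overlapped. Without recurrent bins, chromosome 12 stood at 1.58, 0.21, 1.35 and 0.56 in eggs and at 1.58, 1.28, 0.45 and 0.44 in sperm, means of 0.93 and 0.94. The higher mean of eggs on chromosome 12 was absent once 95 bins were set aside. These bins were drawn partly from the same cells and 30 of them lay on chromosome 12. A fall there thus follows in part from the choice of bins. Eggs 2 and 4 kept 8 ends each on chromosome 12, so the near equal means do not show like coverage of its other parts.

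The highest values on other chromosomes belonged to 1 cell each, while low values were shared. Egg 3 had 2.49 times even coverage on chromosome 6, where the other eggs lay between 0.51 and 1.01 and sperm between 0.37 and 1.27. Sperm 1 had 2.04 on chromosome 1, where eggs lay between 0.70 and 1.10 and the other sperm between 0.85 and 1.23. Sperm 3 had 2.07 on chromosome 10, with eggs between 0.50 and 1.42. Chromosome 2 lay at 0.46 and 0.44 in eggs 1 and 4 and at 0.48 in both sperm 2 and sperm 3, and chromosome 5 lay at 0.38 and 0.33 in eggs 2 and 4. Over the 12 chromosomes, 0 showed 4 eggs entirely above or below 4 sperm (0% in each direction).

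Chromosome 9 was the exception after the recurrent bins were left out. It then stood at 1.11, 1.13, 1.30 and 1.10 in eggs and at 0.55, 0.71, 1.06 and 0.84 in sperm, so every egg lay above every sperm. This was 1 of 12 chromosomes (8.33%), and with all far contacts its ranges overlapped (1.26, 1.23, 1.30 and 0.83 in eggs, and 0.63, 1.01, 1.05 and 1.00 in sperm). Local contacts under 20 kb gave no chromosome with separate ranges either (0% in each direction).

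**Figure D2:**
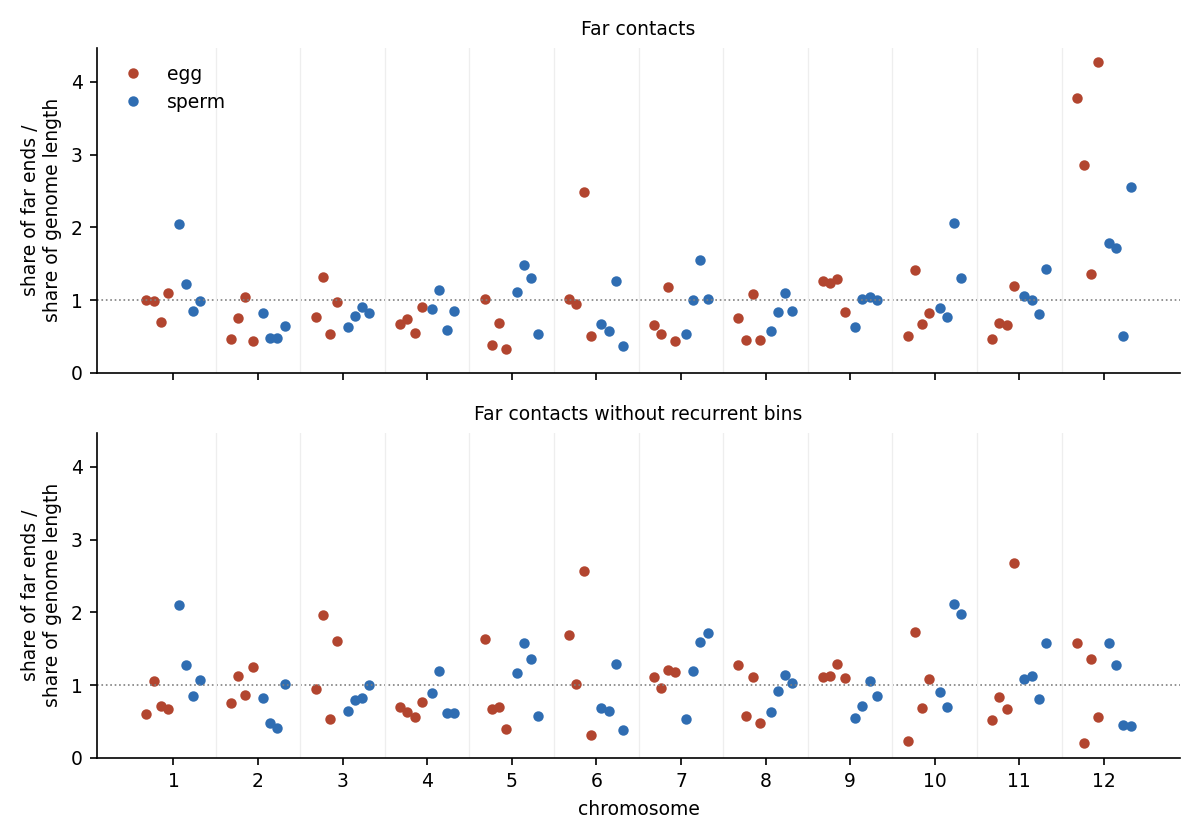
Coverage of each chromosome (share of far contact ends over share of genome length, 1 is even) for 4 eggs and 4 sperm, each point 1 cell in the order 1 to 4, with all far contacts (top) and without recurrent bins (bottom). Chromosome 12 reaches 4.27 in egg 4 at the top, and no egg exceeds 1.58 there at the bottom.

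At equal depth, the number of places touched by eggs and by sperm did not separate them. Thinned to 130 far contacts, eggs touched 98.5, 106, 119 and 93.8 of the 379 bins of 1 Mb, and sperm 120, 126, 94.8 and 107. The means were 104 ± 11.04 in eggs and 112 ± 14.0 in sperm (SD, n = 4 each), a difference within the spread of either group. Without recurrent bins, which leaves fewer contacts to thin to, the means were 79.4 ± 6.02 in eggs and 80.2 ± 10.004 in sperm. With every contact kept, eggs touched 193, 206, 260 and 153 bins and sperm 211, 170, 145 and 107, a higher mean in eggs with overlapping ranges.

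Individual 1 Mb bins seldom separated the gametes. Of the 379 bins, all 4 eggs touched 50 and all 4 sperm touched 11, of which 3 were touched by all 8 cells. These counts are not corrected for depth. Bins touched in at least 3 more eggs than sperm numbered 26 (6.86%), and those with at least 3 more sperm than eggs numbered 5 (1.32%). With every cell thinned to 130 far contacts, a lower limit of at least 1 cell was used. The expected number of cells touching a bin was higher by that much in eggs for 49 of 379 bins and in sperm for 65. The limit changed along with the depth, so these counts cannot be set directly against those without thinning. Without thinning, 5 of the 379 bins (1.32%) were touched in every cell of 1 type and no cell of the other. The bin chr3:24000001-25000000 held 1, 2, 7 and 3 far contacts in eggs, chr8:4000001-5000000 held 7, 17, 2 and 1, chr9:6000001-7000000 held 1, 2, 1 and 2, and chr10:20000001-21000000 held 1, 4, 1 and 5, with none in sperm. The bin on chromosome 10 contains the recurrent 10 kb bin chr10:20070001-20080000, which held 1, 2, 0 and 5 far ends in eggs 1 to 4. The bin chr8:27000001-28000000 held none in eggs and 1, 2, 16 and 2 in sperm. It is the one case in which the shallower gamete type held every cell, and 16 of its 21 contacts came from sperm 3.

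Cis contacts exceeded random pairing in every gamete, and more so in sperm than in eggs. Cis excess is the number of far cis contacts over the number that random pairing of the same contact ends among chromosomes would give. It was 1.33, 1.39, 1.65 and 1.36 in eggs 1 to 4 and 3.37, 1.85, 2.38 and 1.87 in sperm 1 to 4, so all sperm lay above all eggs. On the log2 scale the means were 0.51 ± 0.14 in eggs and 1.20 ± 0.41 in sperm (SD, n = 4 each), a difference of -0.69, egg minus sperm. Summed over cells, eggs had 354 far cis contacts where 248 would arise at random, a ratio of 1.43 (95% Poisson interval 1.28 to 1.58). Sperm had 287 where 110 would arise, a ratio of 2.62 (2.32 to 2.94), and without sperm 1 the ratio was 2.09 (1.75 to 2.47).

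The direction was the same in all alternatives tried, but the ranges did not always stay apart. They overlapped without recurrent bins of either definition, without contacts of 1 read pair, without isolated contacts, without fragments of more than 4 partners, and with far contacts counted from 50 kb. Without recurrent bins, cis excess was 1.55, 1.77, 1.55 and 2.52 in eggs and 3.51, 2.01, 2.36 and 2.22 in sperm, so egg 4, with 96 far contacts left, lay among the sperm. The summed ratios were then 1.69 (1.46 to 1.94) in eggs and 2.77 (2.45 to 3.13) in sperm. Without shared fragment pairs the ranges stayed apart, at 1.45, 1.49, 1.64 and 1.59 in eggs and 3.38, 1.88, 2.31 and 2.01 in sperm.

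By chromosome, the summed cis excess was higher in sperm than in eggs on 10 of 12 (9 of 12 without recurrent bins). The widest gap was on chromosome 8, at 1.06 in eggs (7 contacts) and 3.65 in sperm (16 contacts). Chromosome 6 had 1.18 in eggs and 3.56 in sperm, and chromosome 3 had 1.55 in eggs and 3.96 in sperm. Chromosomes 5 and 7 ran the other way, with 3.22 and 3.34 in eggs and 1.90 and 2.57 in sperm. The 95% interval lay above 1 on 6 chromosomes in eggs and on 11 in sperm. Cell by cell the counts were small, and 0 of 12 chromosomes had separate ranges (0% in each direction). In eggs, 14 of the 19 cis contacts of chromosome 5 and 29 of the 38 of chromosome 6 came from egg 3. In sperm, sperm 1 gave 46 of 71 on chromosome 1, 28 of 44 on chromosome 12 and 11 of 19 on chromosome 6. It gave 10 of 24 on chromosome 3 and 7 of 16 on chromosome 8.

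**Figure D3:**
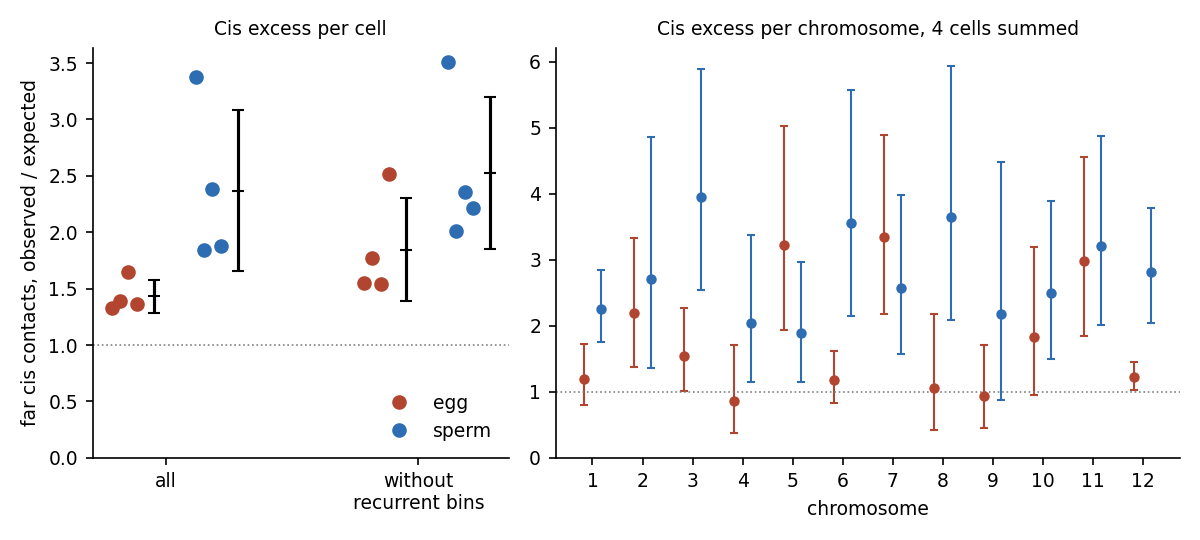
Cis excess (far cis contacts observed over expected from random pairing of ends) per cell, with mean and SD over 4 cells as black bars (left), and per chromosome with the 4 cells summed and 95% Poisson intervals (right); eggs stand left of sperm. The eggs lie between 1.33 and 1.65 and the sperm between 1.85 and 3.37 with all contacts, and the ranges overlap without recurrent bins.

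Sperm and egg cis contacts differed in separation, with a larger share of short ones in sperm. Contacts of 20 to 200 kb made up 20.3% of far cis contacts in eggs and 31.4% in sperm, and those of 200 kb to 2 Mb 19.2% in eggs and 36.9% in sperm. Contacts of 2 to 10 Mb were 31.9% in eggs and 17.8% in sperm, and those over 10 Mb 28.5% in eggs and 13.9% in sperm. Without sperm 1, the sperm shares in these 4 classes were 24.4%, 28.1%, 28.9% and 18.5%, nearer to the eggs in each. Summed over cells, 60.5% of egg far cis contacts (214 of 354, exact interval 55.1 to 65.6%) and 31.7% of sperm far cis contacts (91 of 287, 26.4 to 37.4%) spanned over 2 Mb.

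The cells within each gamete type did not follow the sums alike. The share over 2 Mb was 61.7%, 46.9%, 70.8% and 60.2% in eggs 1 to 4 and 17.8%, 67.4%, 33.8% and 50% in sperm 1 to 4. Sperm 1 and 3 lay below every egg, whereas sperm 2 and 4 lay within the egg range for this share. In the finer classes sperm 4 lay outside the egg range throughout, with 41.7% at 20 to 200 kb, where eggs had 14.6 to 25.9%, and 4.17% over 10 Mb, where eggs had 21.0 to 36.5%. Sperm 1 alone gave 152 of the 287 sperm contacts, and sperm 2 to 4 together had 47.4% over 2 Mb (38.8 to 56.2%). Without recurrent bins, the summed shares were 51.5% in eggs (44.3 to 58.6%) and 28.2% in sperm (22.9 to 34.0%). By cell they were then 37.8%, 45.8%, 68.2% and 25.9% in eggs and 15.9%, 64.1%, 31.8% and 37.5% in sperm, with overlapping ranges. The means over cells were 44.4% ± 17.8 in eggs and 37.3% ± 20.1 in sperm (SD). Egg 3 gave 60 of the 103 egg contacts over 2 Mb, and sperm 1 gave 145 of the 266 sperm far cis contacts. Median separations were 4456, 1518, 5689 and 4859 kb in eggs and 328, 6698, 1215 and 1966 kb in sperm.

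**Figure D4:**
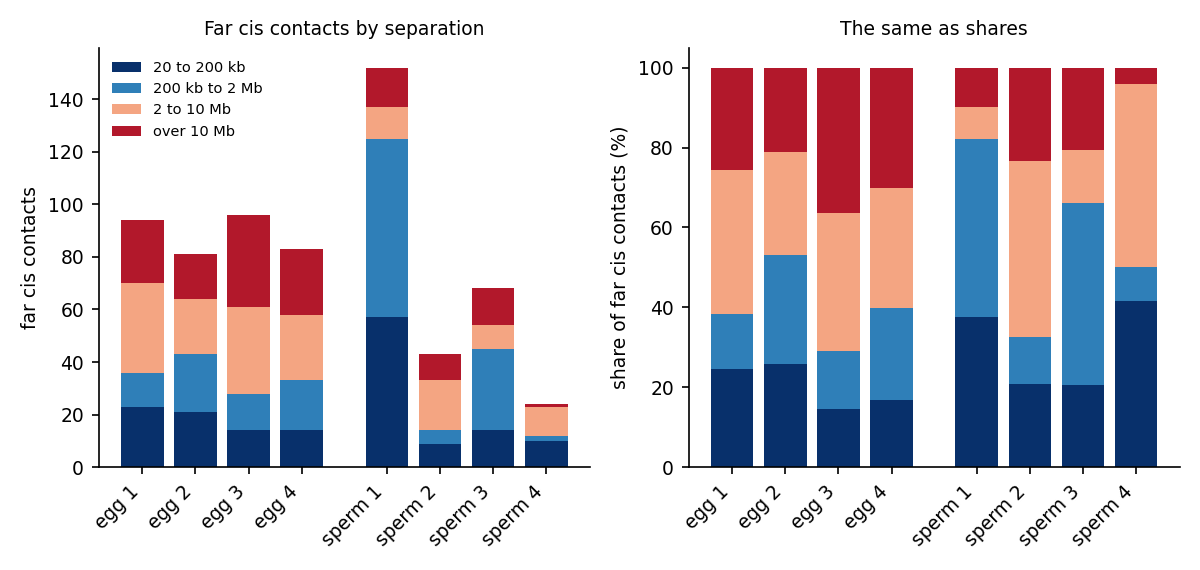
Far cis contacts of each egg (left group) and sperm (right group) by separation class, as stacked counts (left) and as shares of the cell's far cis contacts (right, %). Sperm 1 holds 125 contacts under 2 Mb, more than any other gamete, and sperm 4 has 10 of its 24 contacts in the shortest class.

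In the sums, the higher cis excess of sperm lay in contacts under 2 Mb. Among trans contacts and cis contacts over 2 Mb, the cis share could not be told apart between eggs and sperm at this depth. To place each class, observed contacts were set against all pairs that the same ends of a cell could form at that separation. For 20 kb to 2 Mb, the ratio of observed to expected was 3.26, 3.92, 4.86 and 2.88 in eggs 1 to 4 and 20.5, 4.96, 18.2 and 6.73 in sperm 1 to 4. The ranges did not overlap, but sperm 2 exceeded egg 3 by little. This held for 1 of 7 separation classes examined (14.3%), of which some contain others, and for neither class within it. At 20 to 200 kb the ratios were 3.62, 3.11, 21.7 and 1.80 in eggs and 42.2, 17.7, 61.9 and 13.8 in sperm, so egg 3 lay above sperm 2 and 4. At 200 kb to 2 Mb they were 2.77, 5.22, 2.74 and 5.17 in eggs and 14.3, 2.16, 13.8 and 1.89 in sperm, so sperm 1 and 3 lay above every egg and sperm 2 and 4 below every egg. Summed, the ratio was 3.57 in eggs (3.00 to 4.21) and 14.9 in sperm (12.85 to 17.1), or 10.0 (7.84 to 12.7) without sperm 1.

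Leaving out recurrent bins brought eggs nearer to sperm in this class. The ratios became 7.25, 9.85, 4.93 and 12.0 in eggs and 21.6, 5.91, 19.403 and 10.9 in sperm, with overlapping ranges. The summed ratio was 7.37 in eggs (5.98 to 8.99) and 16.96 in sperm (14.6 to 19.5). Sperm 1 and 3 stood above all eggs under either choice, and sperm 2 and 4 lay near or among them. At 20 to 200 kb the summed ratio moved from 3.34 to 26.2 in eggs (18.4 to 36.1). In sperm it moved from 32.1 to 38.5 (30.8 to 47.6). By cell it was then 36.8, 22.0, 22.0 and 31.4 in eggs and 41.1, 20.7, 65.4 and 32.6 in sperm. At 200 kb to 2 Mb the summed ratio was then 5.11 in eggs (3.90 to 6.57) and 11.6 in sperm (9.51 to 14.1).

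As 1 class, contacts over 2 Mb did not separate eggs from sperm. Among trans contacts and cis contacts over 2 Mb, cis made up 11.4%, 7.84%, 12.8% and 13.59% in eggs and 10.2%, 12.3%, 8.65% and 10.2% in sperm. The sums were 11.3% in eggs (214 of 1890, 9.93 to 12.8%) and 10.3% in sperm (91 of 884, 8.37 to 12.5%), and each interval holds the other group's value. Set against only those pairs of the same ends that were trans or over 2 Mb apart, these long contacts stood at 1.27 (1.11 to 1.46) in eggs and 1.29 (1.04 to 1.58) in sperm. Against all far pairs they stood at 1.21 (1.05 to 1.38) in eggs and 1.05 (0.85 to 1.29) in sperm, with overlapping ranges of cells. Within that class the sums ran in opposite directions. Contacts of 2 to 10 Mb, taken against all far pairs, stood at 1.10 in eggs (0.91 to 1.33) and 1.33 in sperm (0.99 to 1.75). Contacts over 10 Mb stood at 1.36 in eggs (1.10 to 1.65) and 0.83 in sperm (0.60 to 1.14). Neither interval over 10 Mb holds the other group's value, and the ranges of cells overlapped in both classes. Without recurrent bins, contacts over 10 Mb stood at 1.07 in eggs (0.78 to 1.43) and 0.75 in sperm (0.52 to 1.05). Each of these intervals held 1.

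**Figure D5:**
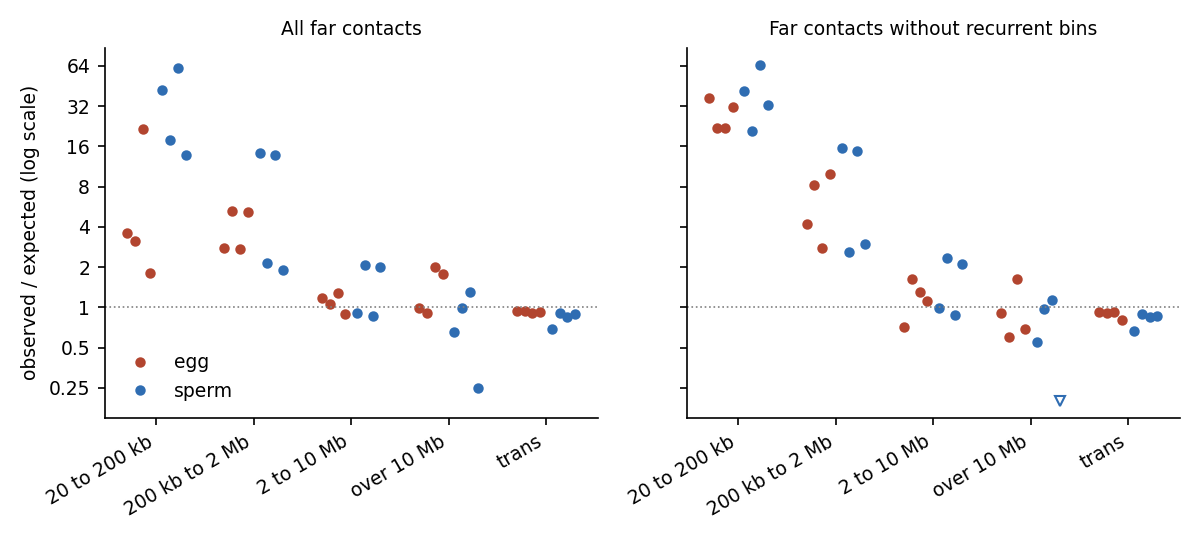
Far contacts by separation class, observed over expected from all pairs of the same contact ends (log scale, 1 dotted), each point 1 egg or 1 sperm in the order 1 to 4, with all far contacts (left) and without recurrent bins (right); the open triangle marks sperm 4, which had 0 contacts over 10 Mb there. Sperm 1 and 3 stand highest from 20 kb to 2 Mb on the left, and all cells lie near 1 for trans contacts.

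Outside sperm 2, many of the contacts under 2 Mb were gathered at few places, which mostly differed from cell to cell. Eggs 1 to 4 held 36, 43, 28 and 33 such contacts and sperm 1 to 4 held 125, 14, 45 and 12. Bins of 1 Mb with at least 4 of them, a limit chosen with the values in view, numbered 2, 2, 3 and 3 in eggs and 11, 0, 4 and 1 in sperm. They held 44.4%, 41.9%, 53.6% and 57.6% of the contacts in eggs and 64.8%, 0%, 57.8% and 41.7% in sperm. A fixed limit is reached more easily in cells with more contacts, and no expected number was computed. Of 24 such bins, 1 occurred in over 1 cell, namely the bin of the chromosome 12 stretch in eggs 1, 2 and 4, with 12, 14 and 4 contacts.

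Sperm 1 held the densest of these places. It had 19 contacts among 19 fragments with their first end in chr1:15000001-16000000, all between 15.28 and 15.41 Mb. A further 11 lay between 8.74 and 9.44 Mb of chromosome 12, and 10 between 4.15 and 5.57 Mb of the same chromosome. Sperm 3 had 8 contacts between 14.89 and 15.22 Mb of chromosome 1. Among eggs, egg 4 had 10 contacts between 2.19 and 2.61 Mb of chromosome 11, and egg 3 had 7 between 2.98 and 3.04 Mb of chromosome 5.

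Trans contacts made up most far contacts in both gametes. Their share was 82.7%, 84.7%, 82.8% and 79.3% in eggs 1 to 4 and 61.0%, 82.7%, 78.1% and 81.5% in sperm 1 to 4. The means were 82.4% ± 2.23 in eggs and 75.9% ± 10.1 in sperm (SD, n = 4 each), with overlapping ranges. Sperm 1 accounted for most of the gap, which was 6.50 percentage points with it and 1.56 without it, egg minus sperm. Without recurrent bins the means were 80.5% ± 5.96 in eggs and 74.4% ± 10.2 in sperm.

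Along the chromosome arms, fewer trans ends of eggs than of sperm lay in the outer part, a gap that narrowed without the recurrent bins. Arms were divided from the centromere outward into inner, middle and outer parts of equal length, taking centromere positions from the rice reference genome, whose fit to the files was not tested. The outer part held 24.4%, 27.3%, 19.8% and 25.2% of trans ends in eggs and 28.8%, 38.3%, 38.7% and 32.1% in sperm. Every sperm thus lay above every egg, with means of 24.2% ± 3.15 in eggs and 34.5% ± 4.86 in sperm (SD, n = 4 each), in 1 of 3 arm parts (33.3%). Without recurrent bins the shares were 33.9%, 35.1%, 19.9% and 36.2% in eggs and 30.1%, 44.0%, 38.5% and 36.9% in sperm, and the ranges overlapped. The means were then 31.3% ± 7.65 in eggs and 37.4% ± 5.73 in sperm (SD).

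Given where the ends lay, no combination of arm positions stood apart from random pairing in either gamete. Outer parts met outer parts in 95 egg contacts, where 91.2 were expected (ratio 1.04, 0.84 to 1.27), and in 94 sperm contacts, where 94.9 were expected (0.99, 0.80 to 1.21). Inner parts met inner parts at 1.03 in eggs (0.91 to 1.16) and 1.03 in sperm (0.82 to 1.27). Over all 6 combinations the summed ratios ran from 0.95 to 1.09 in eggs and from 0.90 to 1.06 in sperm, each interval held 1, and 0 of 6 had separate ranges (0% in each direction). Short arms met short arms at 1.12 in eggs (0.98 to 1.29) and 0.91 in sperm (0.70 to 1.15).

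A measure over all trans contacts did not separate the gametes either. Arm alignment is the rank correlation of the relative arm positions of both ends, given as a description over 318 to 462 contacts per egg and 106 to 243 per sperm. It was -0.06, 0.02, 0.01 and -0.04 in eggs 1 to 4 and 0.15, 0.06, -0.20 and -0.03 in sperm 1 to 4. Values of either sign occurred in both gametes, and the sperm spread was wider at fewer contacts. Without recurrent bins all eggs were above 0, at 0.14, 0.11, 0.01 and 0.14, and sperm stood at 0.19, 0.08, -0.20 and 0.09, with overlapping ranges.

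Of 66 chromosome pairs, 1 had all eggs above all sperm and 1 the reverse (1.52% each). Chromosomes 5 and 8 met in 12 egg contacts where 10.1 were expected from the chromosomes' trans totals (1.19, 0.61 to 2.08) and in 7 sperm contacts where 11.6 were expected (0.60, 0.24 to 1.24). Chromosomes 1 and 7 met in 16 egg contacts where 20.3 were expected (0.79, 0.45 to 1.28) and in 27 sperm contacts where 17.03 were expected (1.59, 1.04 to 2.31). Neither pair kept separate ranges without recurrent bins. Chromosomes 3 and 12 then met in 14 egg contacts where 12.8 were expected and in 0 sperm contacts where 6.81 were expected, again 1 pair of 66 (1.52%), and a count of 0 there has an upper limit of 0.54 times the expectation.

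A haploid nucleus offers each fragment end 1 partner, and both gametes exceeded this. The share of contacted fragment ends with over 1 partner was 30.5%, 27.5%, 19.7% and 31.8% in eggs 1 to 4 and 30.9%, 19.96%, 32.3% and 22.1% in sperm 1 to 4. Thinned to the 761 contacts of sperm 4, the means were 17.5% ± 7.55 in eggs and 19.1% ± 5.87 in sperm (SD, n = 4 each), with overlapping ranges, so the order of the means differs from that of all contacts. Without recurrent bins the thinned means were 16.5% ± 7.18 in eggs and 18.3% ± 5.74 in sperm. Contacts seen in 1 read pair made up 54.9% ± 6.18 of contacts in eggs and 52.8% ± 1.78 in sperm. The part of such contacts in the values above was not tested beyond leaving them out.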

How the data were processed

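Single-cell Hi-C was measured in 8 rice gametes. Per the labels' protocols, isolated cells were fixed with formaldehyde, digested with DpnII, ligated, amplified as whole genomes (REPLI-g), sonicated and sequenced. The deposited files hold, per the file contents, 1 read pair per line with the position, fragment and strand of both ends, not a normalized value. The sources used here name no aligner, contact caller or genome build. A file of chain letters was not used here, nor was a gene table of a different assembly.

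Python 3.11.15, numpy 2.4.6, pandas 2.3.3, scipy 1.17.1 and matplotlib 3.10.9 were used. Contacts were distinct fragment pairs placed at fragment midpoints. Far means trans or at least 20 kb, and recurrent means a 10 kb bin with far ends of at least 5 of 15 cells. Expected trans counts kept each chromosome's trans total. Bins were thinned by formula and other measures by 100 draws. Partners of an end were read from read strands. Intervals (95%) are Clopper-Pearson for shares and Poisson for ratios.

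All 12 chromosomes were described. Chromosome pairs were named where eggs and sperm did not overlap (at most 3 a direction), and the 5 bins of 1 Mb were those that differed most in number of cells. Cells and comparisons were chosen with earlier results of these data known. Measures were tested on simulated data. The alternatives left out contacts of 1 read pair, isolated contacts, fragments of more than 4 partners, recurrent bins, shared contacts or single cells, merged contacts per pair of 10 kb bins, thinned cells, or moved thresholds.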

Additional observations from a re-analysis of the deposited data

Results flagged for a closer look

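In 46 groups of 4 cells checked for a cell far from the others, 2 stood out, both on chromosome 9, and chance alone gives about 1 in 20. Egg 4 had a coverage of 0.832 times even on chromosome 9, where the other eggs lay between 1.23 and 1.30. Sperm 1 had 0.626, where the other sperm lay between 1.00 and 1.05. Without recurrent bins these cells stood at 1.10 (egg 4) and 0.55 (sperm 1), and the other cells of each type at 1.11 to 1.30 (eggs) and 0.71 to 1.06 (sperm).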

How the results depend on the processing

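All differences here are egg minus sperm, without a test. The direction was kept in 11 of 11 alternatives for cis excess (from -0.88 to -0.40 on the log2 scale), in 11 of 11 for the trans share (1.42 to 9.95 percentage points) and in 13 of 13 for the share over 2 Mb (5.86 to 21.6 points). Separate ranges of cis excess held in 5 of its 11 alternatives (merged, thinned, far from 10 kb, without shared contacts, without egg 3 and sperm 1). Leaving out each cell in turn gave -0.79 to -0.50 for cis excess, 1.56 to 8.79 points for the trans share and 9.50 to 26.1 points for the share over 2 Mb. Leaving out cells cannot make ranges overlap that were already separate. For cis excess, separate ranges without egg 3 and sperm 1, or without any single cell, were therefore fixed in advance. Touched 1 Mb bins at equal depth differed by -7.69, by 44.8 without thinning, by 0.12 without the recurrent bins of zygotes and shoot cells, and by -13.4 to -2.88 with a cell left out. Arm alignment differed by -0.01, by 0.00255 without contacts of 1 read pair, 0.0101 without isolated contacts, 0.0626 without recurrent bins, 0.0125 without those of zygotes and shoot cells, 0.0339 without egg 3 and sperm 1, and by -0.0750 to 0.0438 with a cell left out. Ends with over 1 partner differed by -1.53 points, by 1.04 without thinning, 1.15 without egg 3 and sperm 1, and by -3.74 to 2.11 with a cell left out. The cause of these reversals was not tested, and each of the 3 differences lies within the spread between cells. Leaving out shared contacts, the recurrent bins of zygotes and shoot cells, or egg 3 with sperm 1 was chosen after seeing the data. Merging contacts and moving the 20 kb limit have no value for fragment ends. No paired analysis was possible because the labels tie no egg to any sperm. Depth limits sperm 4 most, with 24 far cis contacts.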
